A study of Saccharomyces cerevisiae with 4 samples.

Results

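The 60 genes described here encode assembly factors of the large (60S) ribosomal subunit of budding yeast (Saccharomyces cerevisiae), proteins that build the subunit and leave it before it translates. They were chosen by name from a fixed list of such factors, and the list's rule uses no measured value. Earlier results of these data were known when the list was chosen. All 60 were found among the 6459 gene rows of the deposited tables, 1 of them (MDN1) through an older name, and all 60 passed the filter on low counts. RNA was sequenced from the degron strain ESS1-AID (cell line BY4741), where a tag on Ess1, a prolyl isomerase, allows its breakdown on addition of auxin. Mid-log cultures in rich medium at 30°C received 2 mM IAA (indole-3-acetic acid, an auxin) or DMSO for 3 h, with 2 libraries each, numbered as replicates in the labels. Every culture carried HIS3::ADH1-OsTIR19Myc, which supplies the plant auxin receptor OsTIR1 from the ADH1 promoter, together with the tagged allele ESS1AID 71-114-6Flag::hphB. No strain without the tag was included, so loss of Ess1 and other effects of IAA cannot be told apart.

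A ribosomal large subunit starts in the nucleolus on the long precursor of ribosomal RNA (rRNA), where early factors fold and modify the RNA. It then passes through the nucleoplasm, is exported, and loses its last factors in the cytoplasm. In yeast the genes for these factors, with those for the small subunit and for RNA polymerase I, form the ribosome biogenesis regulon, whose mRNAs are known to fall together when growth slows or nutrients change. Many of their promoters hold the PAC element, bound by the repressors Dot6 and Tod6, and the RRPE element, bound by the repressor Stb3.

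These promoter elements were searched in the genome of build R64, in windows of 300 bases that run from 250 before to 50 after the start codon, on both strands. PAC was searched as GCGATGAG and as its core GATGAG, which lies inside the longer form, and RRPE as AAAATTTT. GCGATGAG was present in 38 of the 60 promoters (63.3%), against 4.0% of 5905 promoters of protein-coding genes. AAAATTTT was present in 48 (80%), against 9.18% of all promoters, and 30 (50%) held both, against 1.98%. The core GATGAG was found in 56, against 19.9% of all promoters, and no member lacked both GATGAG and AAAATTTT, which 75.4% of all promoters do. The shares were lower in the promoters of 26 other large subunit factors, with GCGATGAG in 30.8%, AAAATTTT in 53.8% and both in 11.5%. In the 52 promoters of small subunit assembly factors GCGATGAG was in 55.8%, AAAATTTT in 78.8% and both in 48.1%. Of 132 ribosomal protein promoters 0.758% held GCGATGAG and 6.06% AAAATTTT. A match describes the letters and is not evidence that a factor binds there.

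Stretches of 30 bases around GCGATGAG, printed in capitals, show the element in the 8 members that hold it and had the lowest p between IAA and DMSO. They are given 5′ to 3′ on the strand that reads GCGATGAG, which is named relative to the gene (RefSeq R64).

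RRP8 (chrIV:611973-612002, gene strand): tgaaaaattttGCGATGAGctcaaaataag

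SDA1 (chrVII:982195-982224, opposite strand): tatggttatctGCGATGAGatgagtttaaa

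HAS1 (chrXIII:851681-851710, gene strand): tattagctttaGCGATGAGatgagatttta

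NOP16 (chrV:156685-156714, gene strand): aagaaaaatagGCGATGAGataaatttata

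NOP2 (chrXIV:510398-510427, opposite strand): aaacttattctGCGATGAGatgaaaatttt

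ALB1 (chrX:189580-189609, opposite strand): aaaaaaattttGCGATGAGatcattccaaa

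NOP8 (chrXV:52986-53015, gene strand): ttaagaattgaGCGATGAGctaaaatgtca

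MDN1 (chrXII:363927-363956, gene strand): attttaaagaaGCGATGAGctaaggtctat

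In RRP8 the element directly follows AAAATTTT, and in ALB1 it does so on the opposite strand of the gene. Among the 38 members with GCGATGAG, the element lay between 55 and 207 bases before the start codon, with a median of 122.5. Where both elements occurred, their nearest copies started a median of 15.5 bases apart, and RRPE lay upstream of PAC in 25 of 30.

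Whole windows are shown for 5 promoters, with matches to GCGATGAG (or GATGAG where the longer form is missing) and AAAATTTT in capitals. RRP8 and SDA1 hold both elements and had the lowest p of such members. MAK16 had the largest fall, NIP7 holds both elements and was not called, and TIF6 was the only member called higher in IAA; these 3 were picked after their values were seen.

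RRP8 (chrIV:611823-612122, plus strand): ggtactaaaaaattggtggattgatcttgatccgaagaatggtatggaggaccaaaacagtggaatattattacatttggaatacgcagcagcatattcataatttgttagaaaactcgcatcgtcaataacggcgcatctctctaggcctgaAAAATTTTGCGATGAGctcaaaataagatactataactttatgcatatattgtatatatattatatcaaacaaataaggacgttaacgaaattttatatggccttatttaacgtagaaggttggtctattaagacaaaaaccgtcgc

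SDA1 (chrVII:982019-982318, minus strand): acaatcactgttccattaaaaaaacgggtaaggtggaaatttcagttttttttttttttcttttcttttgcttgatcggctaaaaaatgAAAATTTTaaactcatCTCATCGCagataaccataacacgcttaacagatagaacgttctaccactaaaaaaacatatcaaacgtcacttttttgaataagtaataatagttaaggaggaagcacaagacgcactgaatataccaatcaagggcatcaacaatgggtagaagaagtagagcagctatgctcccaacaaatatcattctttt

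MAK16 (chrI:101096-101395, minus strand): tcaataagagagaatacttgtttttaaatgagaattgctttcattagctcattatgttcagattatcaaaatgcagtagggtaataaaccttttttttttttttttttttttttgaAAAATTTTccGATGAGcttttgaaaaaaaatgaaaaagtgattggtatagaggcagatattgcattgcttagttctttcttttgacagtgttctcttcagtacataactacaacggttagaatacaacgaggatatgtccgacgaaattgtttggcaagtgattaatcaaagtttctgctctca

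NIP7 (chrXVI:153245-153544, plus strand): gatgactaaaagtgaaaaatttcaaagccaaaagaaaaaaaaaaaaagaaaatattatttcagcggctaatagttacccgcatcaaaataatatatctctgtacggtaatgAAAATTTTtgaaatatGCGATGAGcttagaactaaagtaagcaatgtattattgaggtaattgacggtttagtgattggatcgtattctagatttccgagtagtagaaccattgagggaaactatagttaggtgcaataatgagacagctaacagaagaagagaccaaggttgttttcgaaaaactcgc

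TIF6 (chrXVI:593020-593319, minus strand): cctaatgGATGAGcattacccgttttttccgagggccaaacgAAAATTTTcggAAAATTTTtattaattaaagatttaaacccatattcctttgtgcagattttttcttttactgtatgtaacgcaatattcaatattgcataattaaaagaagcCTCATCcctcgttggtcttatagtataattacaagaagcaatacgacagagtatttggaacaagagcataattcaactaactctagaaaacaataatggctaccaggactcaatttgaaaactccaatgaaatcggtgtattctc

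NIP7 thus carries the same pair of elements in the same order as RRP8 and SDA1, and TIF6 carries RRPE and the PAC core.

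Depth and replicate spread set the precision of what follows. Library totals were 33589128 and 33625232 estimated counts in IAA and 26046702 and 27609311 in DMSO. Levels are given as CPM (counts scaled to a fixed library total) after TMM scaling, and tests are edgeR quasi-likelihood tests over 5799 genes with Benjamini-Hochberg adjustment and a threshold of 0.05. Replicates correlated at r = 0.997 in IAA and r = 0.996 in DMSO over log2 CPM of all tested genes. Such values mostly reflect the wide range of levels between genes. Chi-square per degree of freedom between replicate counts was 19.5 in IAA and 6.40 in DMSO, so both pairs varied beyond counting noise. ESS1 had 6.70 and 7.92 CPM in IAA, against 5.15 and 5.31 CPM in DMSO; the degron acts on the protein, so the transcript does not check depletion. Ribosomal DNA rows took 7.02% and 6.16% of the counts in IAA, against 5.26% and 4.87% in DMSO. With these and the transposon rows left out of the fit, 51 members were still counted lower and 1 higher, with a median log2 fold change of -0.34. Values are shares of each library, so fewer cells of a kind and less RNA per cell cannot be told apart.

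Most 60S assembly factor mRNAs were lower in IAA. Of the 60 members, 51 (85.0%) were called lower and 1 higher, and 8 were not called. Over all tested genes 29.6% were called lower and 28.7% higher. The median log2 fold change of the 60 was -0.34, or 1.27-fold lower, against -0.00 for all tested genes. TMM scaling brings the median of all genes close to that value. With library totals it was -0.11, against -0.45 for the 60. For 53 members the IAA values were both under the lower DMSO value, against 41.3% of all tested genes. The 51 called lower were all among them. Both IAA values lay above both DMSO values in 40.2% of all tested genes. Groups that do not overlap were thus usual with 2 libraries each, and are given below as description only. Together the 60 mRNAs summed to 10711 and 10283 CPM in IAA, against 13715 and 13173 CPM in DMSO. As a share of counts outside ribosomal DNA and transposon rows they took 1.2% and 1.15% in IAA and 1.61% and 1.54% in DMSO. The falls were modest: 9 members were called at least 1.5-fold lower (2.76% of all tested genes were). The adjusted p was under 0.001 for 34 members, against 21.0% of all tested genes. The 9 larger falls were in MAK16, RRP8, EBP2, NOP16, SDA1, RSA3, ALB1, NOP8 and CGR1.

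**Figure D1:**
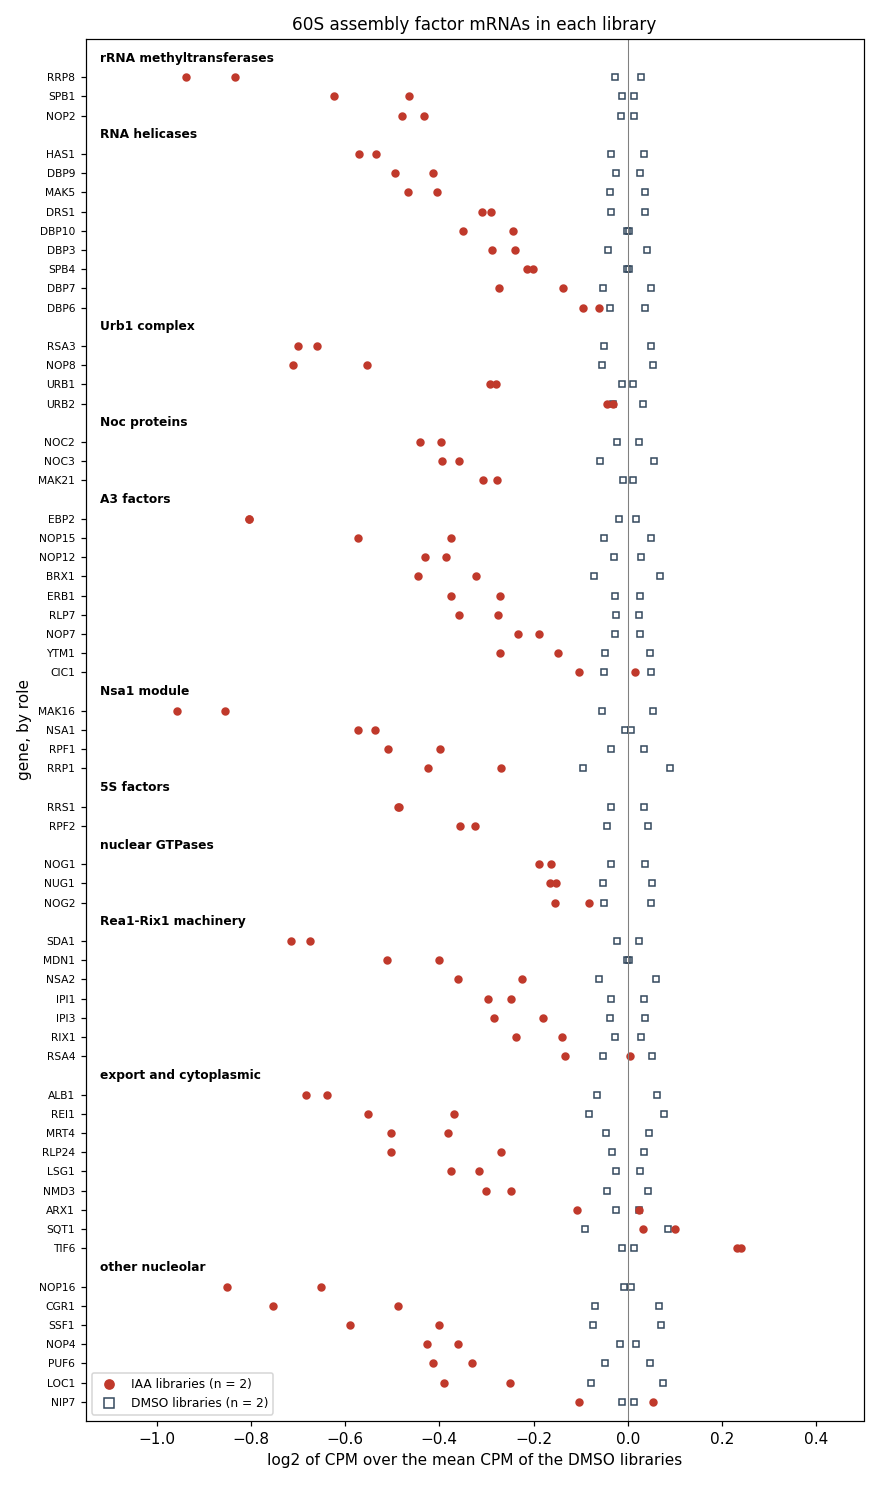
Each row is 1 gene, grouped by role, and the x axis gives the log2 of its CPM in each library over the mean CPM of the DMSO libraries, with filled circles for the 2 IAA libraries and open squares for the 2 DMSO libraries. Circles lie left of the squares for 53 genes, overlap them for 6 and lie to their right for TIF6.

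**Figure D2:**
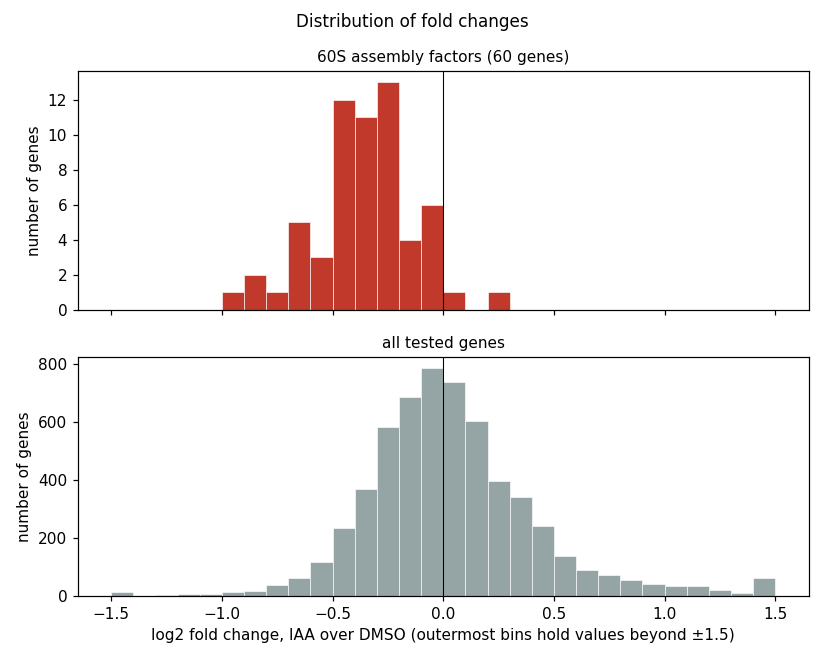
Number of genes (y axis) by log2 fold change of IAA over DMSO (x axis, bins of 0.1), for the 60 assembly factors above and for all 5799 tested genes below. After TMM scaling, which centres the whole set, the assembly factors have a median of -0.34 and the whole set of -0.00.

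Between 46 and 57 members were called lower in each of the alternative fits. The share of all genes called lower was 29.3% with DESeq2 size factors, 43.1% with library totals, 29.7% without ribosomal DNA and transposon rows, 27.8% with no filter and 30.0% with a higher minimum count. It was 24.1% with DESeq2, 29.5% with limma-voom, 37.7% and 37.8% in the FPKM fits and 32.4% with the replicate block. With IAA replicate 1 or 2 left out it was 29.8% and 29.0%, and with DMSO replicate 1 or 2 left out 22.6% and 23.8%. Of all genes, 58.3% were called in either direction.

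All 3 rRNA methyltransferases fell. RRP8 places a methyl group on an adenine of the large rRNA, NOP2 methylates a cytosine, and SPB1 methylates a ribose. RRP8 had 95.3 and 88.7 CPM in the IAA libraries, against 167 and 173 CPM in the DMSO libraries, a 1.85-fold fall (log2 fold change -0.89, SE 0.0518, edgeR adjusted p = 1.51e-05). NOP2 stood at 299 and 289.8 CPM in IAA, against 408 and 399.9 CPM in DMSO (log2 fold change -0.46, SE 0.0415, edgeR adjusted p = 7.03e-05). In IAA SPB1 measured 303 and 272 CPM, against 422 and 415 CPM in DMSO (log2 fold change -0.54, SE 0.0556, edgeR adjusted p = 0.000121). In each of the 3 genes the groups did not overlap.

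Of the 9 RNA helicases, enzymes of the DEAD-box family that open RNA duplexes in the precursor, 8 fell (median log2 fold change -0.30). HAS1, which also serves the small subunit, had the lowest p: 219.5 and 225 CPM in IAA, against 334 and 318 CPM in DMSO (log2 fold change -0.55, SE 0.0442, edgeR adjusted p = 4.35e-05). DBP9 stood at 232 and 219.9 CPM in IAA, against 315 and 304 CPM in DMSO (log2 fold change -0.45, SE 0.0461, edgeR adjusted p = 0.000117). In IAA MAK5 measured 209 and 218 CPM, against 296 and 281 CPM in DMSO (log2 fold change -0.44, SE 0.0465, edgeR adjusted p = 0.000145). The groups did not overlap in any of the 9. DRS1, DBP10, DBP3, SPB4 and DBP7 fell by between 1.15-fold and 1.23-fold, with edgeR adjusted p from 0.000601 to 0.018. DBP6 was not called, with 118 and 121 CPM in IAA, against 129 and 123 CPM in DMSO (log2 fold change -0.08, SE 0.0471, edgeR adjusted p = 0.187), but was with library totals (-0.18, edgeR adjusted p = 0.0119) and with limma on log2(FPKM + 1) (-0.17, adjusted p = 0.0319). The call of DBP7 ended without DMSO replicate 1 (log2 fold change -0.15, edgeR adjusted p = 0.119) and without IAA replicate 2 (-0.13, edgeR adjusted p = 0.0672).

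DBP6 acts with the Urb1 complex, which joins the precursor very early, and 3 of the 4 genes of that complex fell. RSA3 had 59.7 and 58.0 CPM in the IAA libraries, against 97.5 and 91.0 CPM in the DMSO libraries (log2 fold change -0.68, SE 0.0522, edgeR adjusted p = 3.95e-05). NOP8 stood at 77.3 and 69.3 CPM in IAA, against 118 and 109 CPM in DMSO (log2 fold change -0.63, SE 0.0639, edgeR adjusted p = 0.000116). URB1, the large scaffold of the complex, had 276 and 278 CPM in IAA, against 340.3 and 335 CPM in DMSO (log2 fold change -0.29, SE 0.0400, edgeR adjusted p = 0.000511). These 3 had no overlap between groups. URB2 was not called: it had 142 and 143 CPM in IAA, against 149 and 143 CPM in DMSO (log2 fold change -0.04, SE 0.0454, edgeR adjusted p = 0.507), and IAA replicate 2 lay just above DMSO replicate 2. The fold changes in 1 complex thus ran from -0.68 to -0.04 on the log2 scale; differences between members were not tested.

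The Noc proteins, which pair with each other in succession as the precursor moves from nucleolus to nucleoplasm, all fell. NOC2 had 314 and 305 CPM in the IAA libraries, against 420.5 and 407 CPM in the DMSO libraries (log2 fold change -0.42, SE 0.0425, edgeR adjusted p = 0.000116). NOC3 stood at 134 and 131 CPM in IAA, against 179 and 165 CPM in DMSO (log2 fold change -0.38, SE 0.0516, edgeR adjusted p = 0.000469). In IAA MAK21 measured 428 and 437 CPM, against 534 and 526 CPM in DMSO (log2 fold change -0.29, SE 0.0404, edgeR adjusted p = 0.000477), and MAK21 is also known as NOC1. The IAA values of each stood clear of the DMSO values, and the 3 falls lay between 1.22-fold and 1.34-fold.

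The 9 factors grouped here as A3 factors are needed to trim the spacer upstream of the large-subunit rRNAs, and 8 of them fell. EBP2, which partners BRX1, had the lowest p of all 60 members: 263 and 263 CPM in IAA, against 465 and 453 CPM in DMSO, a 1.75-fold fall (log2 fold change -0.80, SE 0.0406, edgeR adjusted p = 7.88e-06). NOP12 stood at 162 and 157 CPM in IAA, against 216 and 207 CPM in DMSO (log2 fold change -0.41, SE 0.0452, edgeR adjusted p = 0.000168), and NOP12 is an RNA-binding protein. In IAA NOP15 measured 93.2 and 81.2 CPM, against 125 and 117 CPM in DMSO (log2 fold change -0.47, SE 0.0691, edgeR adjusted p = 0.00064), for another RNA-binding protein. BRX1, RLP7, ERB1, NOP7 and YTM1 fell by between 1.16-fold and 1.3-fold. NOP7, ERB1 and YTM1 form 1 complex (PeBoW in mammals), and their log2 fold changes were -0.21, -0.32 and -0.21. CIC1 was not called, with 160.3 and 148 CPM in IAA, against 164 and 153 CPM in DMSO (log2 fold change -0.04, SE 0.0570, edgeR adjusted p = 0.536), and its groups overlapped. The call of YTM1 ended without DMSO replicate 1 (log2 fold change -0.16, edgeR adjusted p = 0.105).

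All 4 genes of the Nsa1 module, a group of proteins that bind and leave the precursor as a unit, fell. MAK16 had the largest fall of all 60 members, 1.87-fold, with 95 and 88.5 CPM in IAA, against 178 and 165 CPM in DMSO (log2 fold change -0.90, SE 0.0566, edgeR adjusted p = 1.83e-05). NSA1 stood at 105 and 108 CPM in IAA, against 155 and 157 CPM in DMSO (log2 fold change -0.55, SE 0.0438, edgeR adjusted p = 4.3e-05). RPF1, a Brix-domain protein, had 86.9 and 80.5 CPM in IAA, against 117 and 112 CPM in DMSO (log2 fold change -0.45, SE 0.0537, edgeR adjusted p = 0.000227). RRP1 fell 1.27-fold (edgeR adjusted p = 0.00444). No library of 1 group overlapped the other in these 4 genes. RPF2 and RRS1, which together bring the smallest rRNA (5S) into the subunit, fell as well. RRS1 had 54.4 and 54.3 CPM in the IAA libraries, against 78.0 and 74.3 CPM in the DMSO libraries (log2 fold change -0.49, SE 0.0505, edgeR adjusted p = 0.000125). RPF2 stood at 138 and 134 CPM in IAA, against 178 and 167 CPM in DMSO (log2 fold change -0.34, SE 0.0483, edgeR adjusted p = 0.000548), again with the groups apart.

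The nuclear GTPases moved least of the groups by median log2 fold change (-0.16). NOG1 had 347 and 341 CPM in the IAA libraries, against 399 and 379 CPM in the DMSO libraries (log2 fold change -0.18, SE 0.0435, edgeR adjusted p = 0.00839). NUG1 stood at 248 and 249.7 CPM in IAA, against 287 and 267 CPM in DMSO (log2 fold change -0.16, SE 0.0474, edgeR adjusted p = 0.0199). In IAA NOG2 measured 208 and 197 CPM, against 227 and 212 CPM in DMSO, which was not called (log2 fold change -0.12, SE 0.0509, edgeR adjusted p = 0.0755). In these 3 genes the IAA values were both under the DMSO values, but by small margins. NOG2 was called lower with library totals (log2 fold change -0.22, edgeR adjusted p = 0.00563), with limma on log2(FPKM + 1) (-0.21, adjusted p = 0.0199) and without IAA replicate 1 (-0.16, edgeR adjusted p = 0.0180). The calls of NOG1 and NUG1 ended without DMSO replicate 1 (log2 fold changes -0.14 and -0.11, edgeR adjusted p = 0.133 and 0.265). NOG2 (chrXIV:721120-723112, minus strand) is the 1 member with an intron, which holds the small nucleolar RNA gene SNR191 (chrXIV:721938-722211). SNR191, which guides modification of rRNA, had 2.88 and 1.81 CPM in IAA, against 0.962 and 0.909 CPM in DMSO (log2 fold change 1.32, SE 0.298, edgeR adjusted p = 0.00533). These rest on only 93 and 59 estimated counts in IAA and 26 and 26 in DMSO. SNR191 lies on the same strand as NOG2, so reads from the NOG2 intron and from SNR191 itself cannot be told apart here. The difference between NOG2 and SNR191 was not tested.

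Late nuclear steps depend on MDN1, a giant ATPase that pulls factors off the precursor, and on the RIX1, IPI1 and IPI3 complex. Of the 7 genes in this group 6 fell. SDA1, needed for export of the subunit from the nucleus, had 196 and 202 CPM in IAA, against 327 and 317 CPM in DMSO, a 1.62-fold fall (log2 fold change -0.69, SE 0.0428, edgeR adjusted p = 1.83e-05). MDN1 stood at 588 and 545 CPM in IAA, against 776 and 778 CPM in DMSO (log2 fold change -0.46, SE 0.0474, edgeR adjusted p = 0.000127), and at 14733 bases its coding sequence is the longest of the members. In IAA IPI1 measured 42.8 and 41.4 CPM, against 52.1 and 49.6 CPM in DMSO (log2 fold change -0.27, SE 0.0573, edgeR adjusted p = 0.00388). In the 3 genes the groups were apart. NSA2, IPI3 and RIX1 fell by between 1.14-fold and 1.22-fold. RSA4, from which MDN1 pulls during maturation, was not called and its groups overlapped, with 83.2 and 75.6 CPM in IAA, against 85.9 and 79.9 CPM in DMSO (log2 fold change -0.06, SE 0.0612, edgeR adjusted p = 0.409). The call of RIX1 ended without DMSO replicate 1 (log2 fold change -0.16, edgeR adjusted p = 0.101).

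Factors that travel with the subunit to the cytoplasm held the only rise. TIF6, which keeps the immature large subunit from joining the small one, had 179 and 178 CPM in IAA, against 153 and 151 CPM in DMSO, a 1.18-fold rise (log2 fold change 0.24, SE 0.0425, edgeR adjusted p = 0.00182). Both IAA libraries lay above both DMSO libraries, as in 40.2% of all tested genes. With library total scaling the rise was 0.13 on the log2 scale (edgeR adjusted p = 0.0290). Of the other 8 genes 6 fell. ALB1 had 41.8 and 40.5 CPM in the IAA libraries, against 68.0 and 62.2 CPM in the DMSO libraries (log2 fold change -0.66, SE 0.0618, edgeR adjusted p = 7.97e-05). ALB1 is the partner of the export factor ARX1, which was not called and had 217 and 198 CPM in IAA, against 217 and 209.8 CPM in DMSO (log2 fold change -0.04, SE 0.0536, edgeR adjusted p = 0.533), with overlapping groups. MRT4 stood at 128 and 118 CPM in IAA, against 172 and 161 CPM in DMSO (log2 fold change -0.44, SE 0.0569, edgeR adjusted p = 0.000344), and MRT4 holds the place of the stalk protein on the immature subunit. In IAA LSG1 measured 169.9 and 163 CPM, against 215 and 208 CPM in DMSO (log2 fold change -0.34, SE 0.0456, edgeR adjusted p = 0.000386), for the GTPase that frees the export adaptor NMD3 in the cytoplasm. NMD3, the placeholder RLP24 and REI1, which helps remove ALB1 and ARX1, fell by between 1.21-fold and 1.37-fold. SQT1, the chaperone of the ribosomal protein Rpl10, was not called and had 109 and 104 CPM in IAA, against 107 and 95.1 CPM in DMSO (log2 fold change 0.07, SE 0.0628, edgeR adjusted p = 0.387), with overlapping groups and a sign that turned negative with library total scaling (-0.038).

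REI1 (chrII:739841-741022, plus strand) overlaps the reading frame SLM6 on the opposite strand by 453 bases and was the 1 member whose estimated counts held decimals, a sign of shared reads. REI1 had 91.4 and 80.5 CPM in IAA, against 125 and 112 CPM in DMSO (log2 fold change -0.46, SE 0.0732, edgeR adjusted p = 0.000979). SLM6 held 91 and 124 estimated counts in DMSO and was at 0 in both IAA libraries. The estimated counts of SLM6 held decimals too. Whether counting used strand is not given in the sources read here, so the share of REI1 reads from the opposite strand cannot be told. The reads credited to SLM6 came to 3.37 and 4.33 CPM in DMSO, which sets no upper limit on that share.

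The remaining 7 nucleolar factors included 6 that fell. NOP16 had 95.6 and 83.2 CPM in the IAA libraries, against 149 and 151 CPM in the DMSO libraries (log2 fold change -0.75, SE 0.0649, edgeR adjusted p = 5.94e-05). NOP4 stood at 232 and 222 CPM in IAA, against 302 and 295 CPM in DMSO (log2 fold change -0.39, SE 0.0439, edgeR adjusted p = 0.000175), and NOP4 is an RNA-binding protein. PUF6, which with LOC1 also acts in localising ASH1 mRNA to the bud, had 303 and 286 CPM in IAA, against 393 and 368 CPM in DMSO (log2 fold change -0.37, SE 0.05, edgeR adjusted p = 0.000421). Their groups were apart, as were those of SSF1, CGR1 and LOC1, which fell by between 1.25-fold and 1.53-fold. CGR1 had the lowest CPM of the members, a scale that takes no account of length, with 13.0 and 10.8 CPM in IAA, against 19.1 and 17.4 CPM in DMSO. NIP7, needed to process the large-subunit rRNA, was not called, with 40.8 and 36.6 CPM in IAA, against 38.9 and 39.6 CPM in DMSO (log2 fold change -0.02, SE 0.0681, edgeR adjusted p = 0.785), and its groups overlapped. SSF1 has a close copy, SSF2. SSF1 fell 1.41-fold and SSF2 1.21-fold, and the 2 summed to 1 row gave a log2 fold change of -0.41 (SE 0.0670, edgeR adjusted p = 0.00103).

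Levels per length were compared in the deposited FPKM values, which are scaled to gene length and library total. The 60 members spanned 36.4 to 341 FPKM over the IAA libraries and 44.8 to 451 FPKM over the DMSO libraries. EBP2 was the most abundant member per length in DMSO, with 451 and 441 FPKM there and 238 and 242 FPKM in IAA, where it held rank 5. TIF6 was the most abundant in IAA, with 336 and 341 FPKM, and held rank 6 in DMSO, with 305 and 301 FPKM. MDN1 and URB2 were the lowest in both groups. MDN1 had 38.9 and 36.4 FPKM in IAA and 55.5 and 55.6 FPKM in DMSO, and URB2 had 41.3 and 42.1 FPKM in IAA and 46.9 and 44.8 FPKM in DMSO. MAK16 held rank 32 in IAA, against rank 12 in DMSO, and RRP8 rank 43 in IAA, against rank 29 in DMSO. Of the 10 members highest in DMSO 9 were called lower, and of the 10 lowest 7 were. Across the 60 genes, which share the same 4 libraries, the log2 fold change correlated with log2 FPKM in DMSO at r = -0.33 and with log2 coding length at r = 0.16. The DMSO level is also part of the fold change, so noise in it pushes the first correlation below 0. The split by DMSO level shares this limit, and no conclusion is drawn from either.

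**Figure D3:**
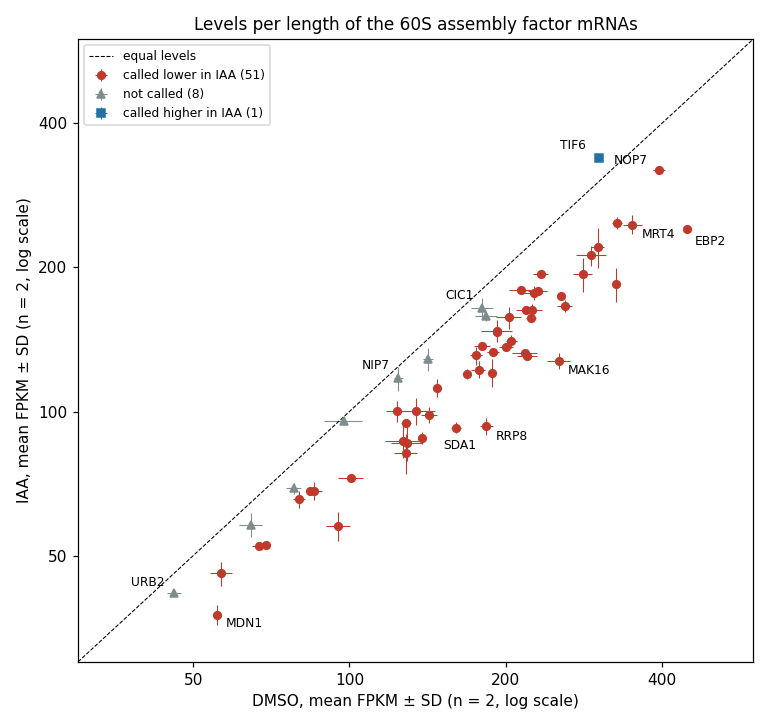
Mean FPKM in IAA (y axis) against mean FPKM in DMSO (x axis), both on log scales, for the 60 assembly factors, with SD of 2 libraries as error bars and the dashed line at equal levels. Red circles are the 51 genes called lower, grey triangles the 8 not called and the blue square TIF6, which lies above the line.

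The fold changes of the members were then set beside the elements in their promoters. The 30 members with GCGATGAG and AAAATTTT had a median log2 fold change of -0.32, the 8 with GCGATGAG alone -0.38, the 18 with AAAATTTT alone -0.38 and the 4 with neither -0.37. Members called lower made up 26, 7, 15 and 3 of these. The size of the fall thus showed no order by these classes among the members. The 4 with neither all held the core GATGAG, and of the 18 with AAAATTTT alone only 4 lacked it. No member lacked every element searched, but 4275 of the 5010 other tested genes with neither GCGATGAG nor AAAATTTT did. Members without any element could therefore not be compared. Among all tested genes with GCGATGAG 61.7% were called lower, with AAAATTTT 50.2%, and with GATGAG 38.4%. Of the 8 members not called, 5 held GCGATGAG and 6 held AAAATTTT, and of the 9 that fell at least 1.5-fold 6 and 7 did. Among all tested genes the same classes differed in the share called lower. It was 76.1% of 117 genes with both elements, 47.5% of 118 with GCGATGAG alone, 42.9% of 413 with AAAATTTT alone and 27.3% of 5014 with neither. Without the 60 members, 63 of 87 genes with both elements were called lower (median log2 fold change -0.25) and 1364 of 5010 with neither were (0.01). The 87 still include 25 small subunit assembly factors and 3 other large subunit factors, and the elements apart from such genes were not tested.

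**Figure D4:**
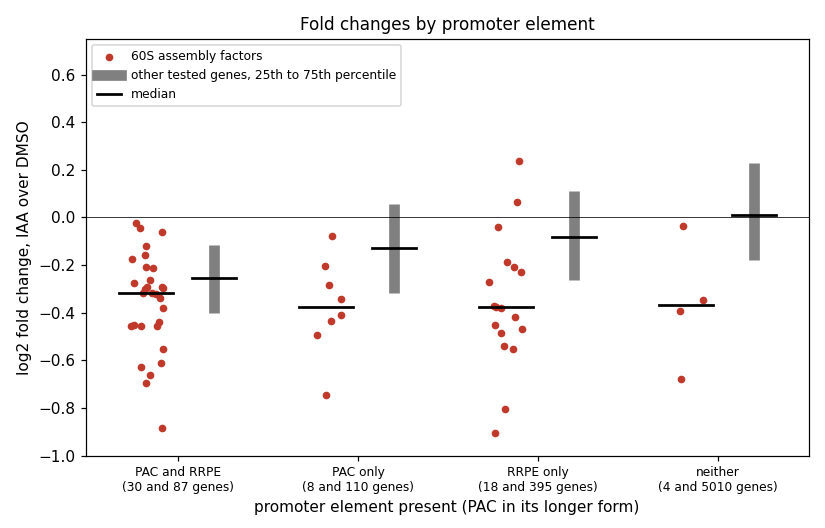
Log2 fold change of IAA over DMSO (y axis) by the elements found in the promoter (x axis). PAC was counted in its longer form GCGATGAG, and the 4 members with neither element all hold its core GATGAG. Red points are the 60 assembly factors, grey bars the 25th to 75th percentile of the other tested genes of the same class, and black lines medians; the medians of the assembly factors lie between -0.38 and -0.32 in the 4 classes, and those of the other genes are -0.25 with both elements and 0.01 with neither.

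Genes that work beside the 60 were read from lists of their own. Of 26 other large subunit factors 23 fell and 0 rose (median log2 fold change -0.31), again against 29.6% lower and 28.7% higher over all genes. RRP17 had 72.3 and 69.6 CPM in the IAA libraries, against 125 and 118 CPM in the DMSO libraries (log2 fold change -0.78, SE 0.05, edgeR adjusted p = 2.14e-05). RRP17 is a nuclease of the precursor, and RRP14 (-0.60) and NOP13 (-0.68) had the next lowest p. Of 52 small subunit assembly factors 48 fell and 0 rose (median -0.28), led by NOP14 (-0.72), UTP14 (-0.70) and LTV1 (-0.71). RNA polymerase I transcribes the rRNA precursor. Of 15 of its genes 7 fell, 1 rose and 7 were not called (median -0.22). The initiation factor gene RRN3 was the 1 called higher, with 138 and 109 CPM in IAA, against 81.9 and 78.2 CPM in DMSO (log2 fold change 0.62, SE 0.0978, edgeR adjusted p = 0.000893), while UAF30, RRN11 and RPA49 fell by between 1.2-fold and 1.49-fold. Whether these lists differ from the 60 members was not tested.

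Among 16 regulators of ribosome genes 7 fell (43.8%) and 1 rose (median log2 fold change -0.08). Over all tested genes 29.6% were called lower and 28.7% higher. FHL1, RAP1 and IFH1, which act at ribosomal protein promoters, had the lowest p, with log2 fold changes of -0.44, -0.31 and -0.28. The activator SFP1 fell 1.16-fold (log2 fold change -0.21, SE 0.05, edgeR adjusted p = 0.00732). TOD6, a repressor that binds PAC, fell 1.2-fold (log2 fold change -0.27, SE 0.0567, edgeR adjusted p = 0.00405), while its relative DOT6 had 408 and 472 CPM in IAA, against 447 and 485 CPM in DMSO and was not called (log2 fold change -0.08, SE 0.0713, edgeR adjusted p = 0.338). STB3, which binds RRPE, was not called either (log2 fold change -0.08, SE 0.0493, edgeR adjusted p = 0.176). SFP1, TOD6, DOT6 and STB3 were named after their values were seen. CRF1, a co-repressor of ribosomal protein genes, rose 1.24-fold (log2 fold change 0.31, SE 0.0734, edgeR adjusted p = 0.00718), a call that DESeq2 did not make (adjusted p = 0.0505) nor limma on log2(FPKM + 1) (adjusted p = 0.0565).

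**Figure D5:**
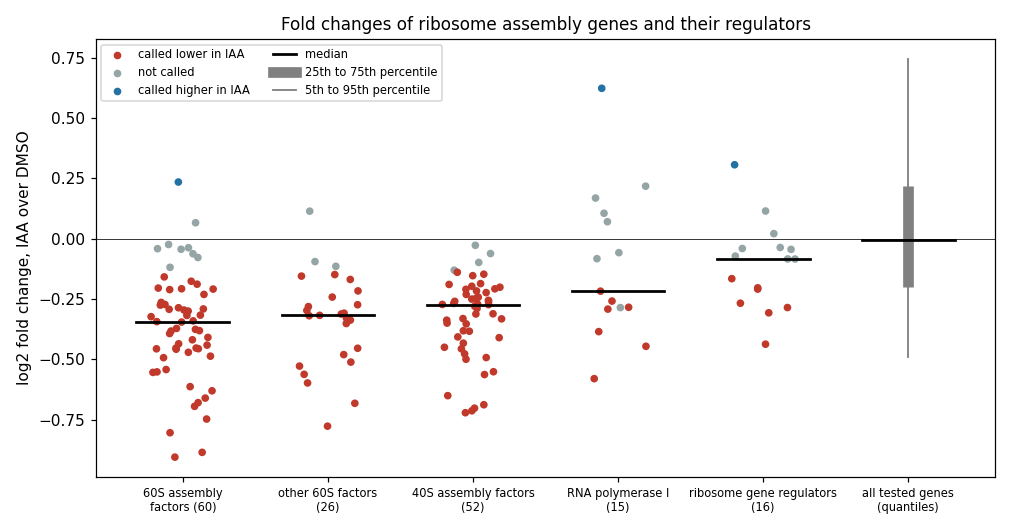
Log2 fold change of IAA over DMSO (y axis) for each gene of the lists, with black lines at the medians (-0.34, -0.31, -0.28, -0.22 and -0.08 from left to right). Red, grey and blue points were called lower, not called and called higher, and the last column gives percentiles of all 5799 tested genes.

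Ribosomal protein genes tied to a member by role were read beside it, and were picked after the lists were set. The placeholder MRT4 fell 1.36-fold, while RPP0, whose product takes its site, had 2339 and 2218 CPM in IAA, against 1767 and 1821 CPM in DMSO (log2 fold change 0.35, SE 0.0438, edgeR adjusted p = 0.00032). RLP24 fell 1.3-fold. Of the genes for its successor, RPL24A had 609 and 562 CPM in IAA, against 536 and 525 CPM in DMSO (log2 fold change 0.14, SE 0.0491, edgeR adjusted p = 0.0338) and RPL24B 652 and 610.1 CPM in IAA, against 796 and 805 CPM in DMSO (log2 fold change -0.34, SE 0.0455, edgeR adjusted p = 0.000387), so 1 copy rose and the other fell. RPL10, whose product SQT1 guards and NMD3 contacts, had 2432 and 2238 CPM in IAA, against 1551 and 1522 CPM in DMSO (log2 fold change 0.60, SE 0.0487, edgeR adjusted p = 4.43e-05). RLP7 fell 1.25-fold, and its ribosomal relatives RPL7A and RPL7B had log2 fold changes of 0.46 and 0.23, with shared reads between the copies. RPL5 had 2291 and 2173 CPM in IAA, against 2434 and 2425 CPM in DMSO (log2 fold change -0.12, SE 0.0425, edgeR adjusted p = 0.0354). It is carried in with the 5S rRNA, the step served by RPF2 and RRS1, and so is the product of RPL11A and RPL11B. These copies share reads and were not called, with log2 fold changes of 0.13 and -0.0058 (edgeR adjusted p = 0.0571 and 0.923). RPL3, for a ribosomal protein that binds the precursor early, had 5312 and 5228 CPM in IAA, against 4119 and 4083 CPM in DMSO (log2 fold change 0.36, SE 0.0389, edgeR adjusted p = 0.00015).

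The members lie on all 16 nuclear chromosomes, and 5 of them sit next to another listed gene. NSA2 and the small subunit gene LCP5 are divergent with 301 bases between them, and both fell (log2 fold changes -0.29 and -0.50). RIX1 with UTP9, RRS1 with UAF30, RSA3 with UTP13 and NMD3 with DBP8 stand in tandem, and both genes of each pair fell. Of the 112 other tested neighbours 33 were called lower (29.5%) and 26 higher, with a median log2 fold change of -0.02. Over all tested genes 29.6% were called lower and 28.7% higher, so the share lower was that of all genes. The 28 divergent ones among them had 11 lower and 2 higher, the 48 tandem ones 10 and 14, and the 36 convergent ones 12 and 10. Differences between these orientations were not tested.

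Replicates of the members also differed from each other in a shared way. In IAA, replicate 1 was above replicate 2 in 49 of the 60 members, with a median gap of 0.08 on the log2 scale. In DMSO, replicate 1 was above replicate 2 in 53 of the 60, with a median gap of 0.07. The median gaps over all tested genes were 0.00 in both groups, but TMM scaling brings them close to that value in advance. The gaps of the members are small beside their median difference of -0.34 between groups. They are less small beside the weaker falls, such as NUG1 (log2 fold change -0.16), NOG1 (-0.18) and RIX1 (-0.19). Without DMSO replicate 1 these were -0.11, -0.14 and -0.16.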

How the data were processed

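The authors deposited estimated counts per gene and, in a second table, FPKM values. The submitters' processing notes name RSEM 1.3.3, STAR 2.7.10a and build R64, and also DESeq2, Trimmomatic, FastQC 0.11.9 and SAMtools 1.10, without roles. Per the labels' protocols a directional library kit was used; the strand setting of counting is not given in the sources read here. Deposited FPKM values corresponded to the annotated length less 217 to 231 bases, that is, an effective length. Counts were rounded to whole numbers and tested with edgeR 4.0.16 in R 4.3.3 (filterByExpr, TMM, glmQLFit, glmQLFTest, all 4 libraries, no covariates); the scripts were tested on simulated data. SE was taken as the absolute log2 fold change divided by the square root of F. Alternatives used DESeq2 1.42.0 and limma 3.58.1 on log2(FPKM + 1) and log2(FPKM + 0.1) of genes with a mean of at least 1 FPKM, a scale that understates changes of low genes. Genes were matched to the RefSeq annotation of R64, which lists coding lengths. The members and lists were chosen with earlier results of these data known. In each role group the 3 members with the lowest p were given per library, with every member not called, called higher, sharing reads or overlapping a gene; in other lists up to 3 genes per direction. Replicate numbers come from the titles, which name no shared or separate cultures, so p-values measure the spread between these libraries, which may be technical. Depth was 26046702 to 33625232 estimated counts.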

Additional observations from a re-analysis of the deposited data

How the results depend on the processing

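Of the 51 members called lower, 46 were called lower under all 14 alternatives set in the design, and TIF6 was called higher in each of them. The count lower was 57 with library totals, 53 in both FPKM fits, 46 to 52 with 1 library left out, 52 with the replicate block, and 51 in the other fits. The median log2 fold change was -0.45 with library totals, -0.43 in both FPKM fits and -0.40 to -0.30 with 1 library left out. The median over all genes shifted too, by -0.10 with library totals and by -0.08 in both FPKM fits. With library totals ARX1, CIC1, DBP6, NOG2, RSA4 and URB2 were also called lower, the log2 fold changes of SPB4, DBP7, YTM1, NUG1, NOG1 and RIX1 grew over 1.5 times and that of TIF6 was 0.13. Where a library is left out, the lone library of its group was taken to vary as the complete group does. After removing trends over coding length, GC content and expression, an alternative chosen after seeing the data, the median was -0.31 and 55 members were below 0, against 58 without the correction. With the replicate block 1876 genes in all were called lower (1714 without it), and NOG2 was the member gained (log2 fold change -0.12, edgeR adjusted p = 0.0214). The block changed no other call of a member, and same-numbered libraries deviated together at r = 0.31 over 5086 genes, with 2 pairs only. Signs turned in members that were not called: SQT1 was -0.038 with library totals and -0.022 in both FPKM fits. With 1 library left out, SQT1 ran over -0.019 to 0.16, CIC1 over -0.11 to 0.022, RSA4 over -0.13 to 0.013, ARX1 over -0.11 to 0.031 and NIP7 over -0.11 to 0.060. The causes were not tested.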
